A study of Homo sapiens with 25 samples.

Results

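The 7 genes described here, ANLN, ECT2, RACGAP1, PRC1, CIT, CEP55 and ARHGAP11A, encode proteins of the contractile ring, the spindle midzone and the midbody, the structures that divide a cell at the end of mitosis. They were chosen by name, with earlier results of these data known, from the 28395 genes of the deposited count table. All 7 had enough counts to be tested. Their counts lay between 601 and 5476 per library. RNA was measured by poly(A)-selected sequencing in A549, a long-established line from a human lung carcinoma, engineered so that TRRAP, a scaffold subunit of histone acetyltransferase complexes, carries the degron tag mAID. With the tag, the auxin analogue 5-Ph-IAA triggers degradation of the TRRAP protein.

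There were 4 groups of 3 libraries each: both drugs (5-Ph-IAA and prexasertib), 5-Ph-IAA, prexasertib and DMSO. Cells of every group carried the tag, were arrested with 2 mM thymidine for 20 h and were harvested 4 h after its removal, and the series design text places them in S phase. 5-Ph-IAA was used at 1 µM for 6 h. Prexasertib inhibits CHK1, a kinase of the DNA damage checkpoint. It was present for 3 h, and its dose is left out because the labels of the series give it in conflicting units. The labels do not say how many clones the tagged line comes from or whether the libraries came from separate cultures, so p-values measure the spread between these libraries. The degron acts on protein, so the RNA counts do not check that TRRAP was lost. No untagged cells were given 5-Ph-IAA, so effects of TRRAP loss and of the compound itself cannot be told apart.

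In anaphase, PRC1 crosslinks antiparallel microtubules into the midzone, and the centralspindlin complex of RACGAP1 and the kinesin KIF23 gathers there. RACGAP1 recruits ECT2, the exchange factor that loads RhoA with GTP at the equator, and RhoA then drives actin and myosin II into a ring that anillin, the product of ANLN, ties to the membrane. Citron kinase (CIT) stabilises the midbody that remains when the ring has closed, and CEP55 recruits the ESCRT machinery that cuts it. Transcription of many such genes rises late in the cell cycle through the CHR promoter element, which complexes built on MuvB, including that of MuvB with B-MYB (MMB), bind.

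The promoters are shown because the title of the series names MMB-dependent transcription, and the RNA of these genes moved together, as described below. RefSeq promoter windows on GRCh38.p14, from 250 bases before the annotated start to 50 after it, were matched for 6 of the 7 genes; ECT2 had 2 windows and RACGAP1 was not matched. The CHR was searched as TTTGAA on both strands, so that a match on the other strand reads TTCAAA. A match lay in the windows of 5 of the 6 genes, against 15.2% of all 35116 windows. Within the last 150 bases before the start, 4 of 6 genes held one (ANLN, ECT2, PRC1 and CEP55), against 7.33% of windows. In ANLN a TTCAAA ended where a TTTGAA began, at position -20 counted from the start at 1 with no 0, and in PRC1 the single match also began at -20. In CEP55 one match crossed the start and another began at -116. The CIT matches began at -208 and at 11, and ARHGAP11A held none in its window. That window covers the annotated start at 32615144 only. The start of the readthrough gene ARHGAP11A-SCG5, at 32615476, lies beyond it and was not examined. The window of the paralog ARHGAP11B held a TTTGAA at -91. Capitals mark the matches below, and each sequence runs 5′ to 3′ on the strand of its gene. PRC1, ECT2 (the first start), CEP55 and ARHGAP11A are shown by the last 150 bases before the start, where the closing TTC of CEP55 opens the match that crosses it. ANLN is shown by 30 bases, since its promoter lies within the neighbouring gene MATCAP2. The start of CEP55 and the CIT matches, which lie outside the last 150 bases, are also shown by 30 bases each.
PRC1, chr15:90994536-90994685, minus strand: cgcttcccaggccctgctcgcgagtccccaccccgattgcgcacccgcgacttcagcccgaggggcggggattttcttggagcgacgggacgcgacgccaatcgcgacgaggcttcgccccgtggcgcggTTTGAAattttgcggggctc
ECT2, chr3:172750576-172750725, plus strand: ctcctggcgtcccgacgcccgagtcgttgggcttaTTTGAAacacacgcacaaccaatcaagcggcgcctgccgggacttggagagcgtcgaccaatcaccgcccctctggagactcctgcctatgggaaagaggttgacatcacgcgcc
CEP55, chr10:93496462-93496611, plus strand: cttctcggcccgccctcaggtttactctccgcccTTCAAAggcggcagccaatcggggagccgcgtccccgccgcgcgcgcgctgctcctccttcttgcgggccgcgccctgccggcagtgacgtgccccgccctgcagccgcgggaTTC
CEP55 across the start, chr10:93496597-93496626, plus strand: gcagccgcgggaTTCAAActcccggaagcg
ANLN, chr7:36389830-36389859, plus strand: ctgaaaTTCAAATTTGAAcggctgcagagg
CIT upstream, chr12:119877511-119877540, minus strand: gtaaccgccaatTTCAAActtccaagacct
CIT downstream, chr12:119877293-119877322, minus strand: ccgttcctcgggTTCAAAcgcggcggcggg
ARHGAP11A, chr15:32614994-32615143, plus strand: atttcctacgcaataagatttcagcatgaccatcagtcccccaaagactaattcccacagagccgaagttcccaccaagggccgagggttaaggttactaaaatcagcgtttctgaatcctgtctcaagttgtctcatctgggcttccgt

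The second form of the CHR, TTTAAA, occurred in 0 of the 6 genes and in 12.2% of all windows. The NF-Y box CCAAT, which often lies a short way upstream of a CHR, occurred in 4 of 6 genes (ECT2, PRC1, CIT and CEP55) and in 34.6% of windows. The MYB core AACNG was found in 5 of 6, but 77.2% of all windows hold it. The E2F cores TTGGCGC and TTCCCGC matched in 1 gene each, ECT2 and CEP55, against 3.04% and 6.55% of windows. A match describes letters in a window and is not evidence that a factor binds there.

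**Figure D1:**
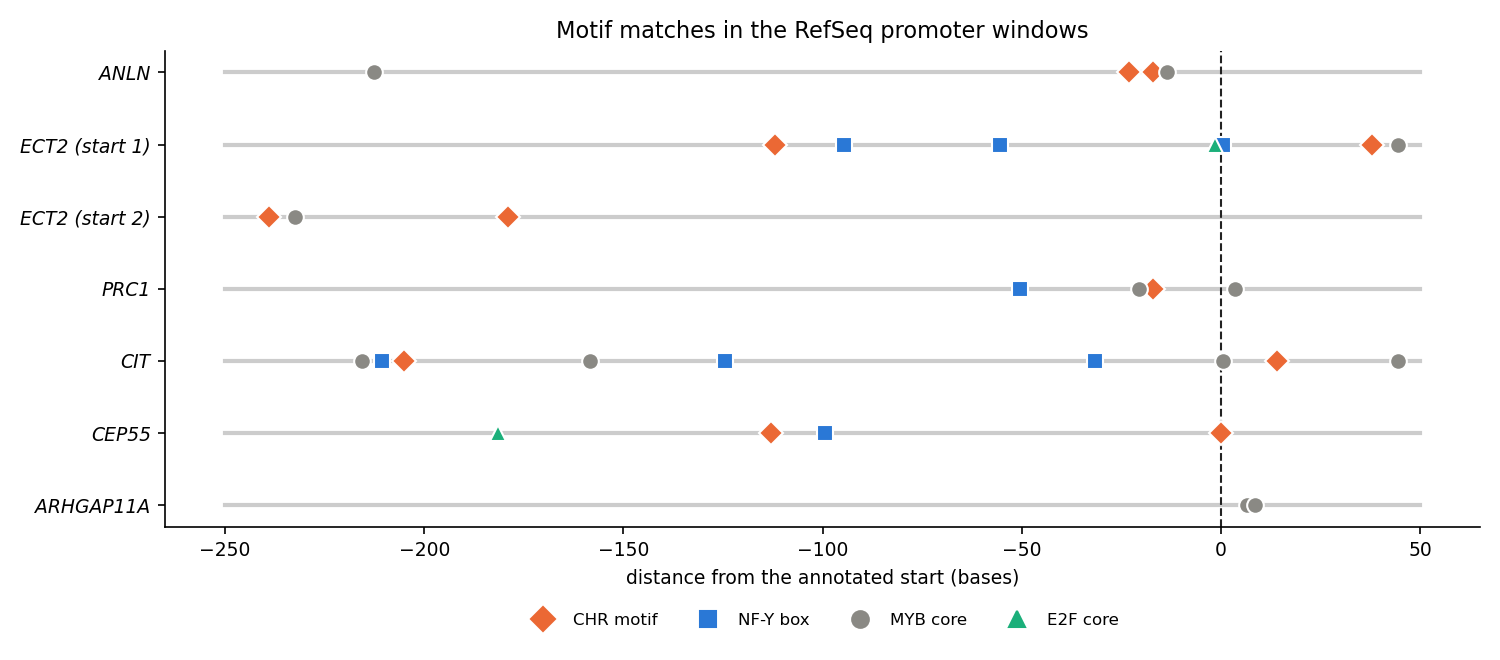
Positions of the motif matches in the promoter windows of 6 genes (ECT2 with its 2 annotated starts), on either strand, as distance in bases from the annotated start (dashed line). CHR matches (diamonds) lie in every row but that of ARHGAP11A, and those of ANLN and PRC1 lie just before the start.

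Total counts ran from 10830048 to 17789482 per library, over 17135 to 18912 genes with a count, and 14658 genes were tested. The libraries with replicate number 3 stood apart from numbers 1 and 2 in every group on the second principal component, so results that rest on them are given with and without them. TMM scaling factors, which correct for RNA composition, were 1.02 to 1.1 with 5-Ph-IAA and 0.925 to 0.978 without it. Scaling by library size alone moved the median of all genes by 0.16 on the log2 scale for 5-Ph-IAA against DMSO, by 0.14 for both drugs against prexasertib and by 0.10 for both drugs against DMSO. The epithelial keratins KRT8 and KRT18 averaged 3251 and 2114 CPM, whereas KRT19 and EPCAM were low at 4.24 and 0.807 CPM. Summed levels of the blood, fibroblast, endothelial and neuronal markers overlapped between the 4 groups or stayed under 1.21 CPM, and DCN was at 0 in every library. Of these markers COL1A1, CD68 and SNAP25 averaged 31.7, 30.6 and 48.4 CPM. In these bulk samples fewer cells in G2 and mitosis and less RNA per cell cannot be told apart.

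Levels are CPM, the counts divided by the TMM-scaled size of the library, and they compare groups, not genes, because transcript length was not taken into account. ECT2 had 245, 263 and 249 CPM with both drugs, 235, 234 and 219.9 CPM with 5-Ph-IAA, 376, 365 and 329.8 CPM with prexasertib, and 287, 278 and 282 CPM with DMSO. All its prexasertib libraries lay above, and all libraries given 5-Ph-IAA below, the 3 DMSO libraries. RACGAP1, its recruiter at the midzone, had 180.1, 187 and 195 CPM with both drugs, 114, 121 and 132 CPM with 5-Ph-IAA, 313, 298 and 341 CPM with prexasertib, and 210.1, 199 and 225 CPM with DMSO. The 4 groups of RACGAP1 did not overlap, although the both-drug libraries came close to the DMSO libraries. ANLN had 241, 252 and 286 CPM with both drugs, 234, 213 and 243 CPM with 5-Ph-IAA, 389, 396 and 404 CPM with prexasertib, and 315, 305 and 334 CPM with DMSO. Its 5-Ph-IAA libraries overlapped the both-drug libraries and no others.

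ARHGAP11A, a GTPase-activating protein for RhoA and so an opponent of ECT2, had 143, 164 and 124 CPM with both drugs, 126, 139 and 108 CPM with 5-Ph-IAA, 285, 261 and 245 CPM with prexasertib, and 234, 227 and 212 CPM with DMSO. The groups with and without 5-Ph-IAA were far apart, and the groups within each side were close. Its paralog ARHGAP11B, a human-specific truncated copy on the same chromosome, had 59 to 166 counts per library. ARHGAP11B averaged 6.92 ± 1.55 CPM with both drugs, 4.94 ± 0.753 with 5-Ph-IAA, 13.3 ± 1.10 with prexasertib and 9.69 ± 1.01 with DMSO (SD, n = 3 each). Reads shared by the copies, and by the readthrough gene ARHGAP11A-SCG5, cannot be assigned with certainty, so values of both paralogs are uncertain to that extent.

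PRC1, the midzone crosslinker, had 288, 311 and 292 CPM with both drugs, 233, 221 and 217 CPM with 5-Ph-IAA, 437, 440.3 and 452 CPM with prexasertib, and 349, 351 and 357 CPM with DMSO. Its 4 groups did not overlap and its replicates were the tightest of the 7 in the DMSO group, at 352 ± 4.00 CPM (SD, n = 3). CIT had 58.1, 53.3 and 57.4 CPM with both drugs, 66.6, 63.6 and 49.4 CPM with 5-Ph-IAA, 94.8, 98.9 and 109.8 CPM with prexasertib, and 90.4, 88.8 and 78.6 CPM with DMSO. Here the both-drug libraries fell inside the range of the 5-Ph-IAA libraries, whose replicate 3 was the lowest value of CIT. CEP55 had 150.1, 157 and 143 CPM with both drugs, 114, 106 and 108 CPM with 5-Ph-IAA, 341, 334 and 273 CPM with prexasertib, and 234, 223 and 197 CPM with DMSO. On the log2 scale, though not in CPM, its group means spanned the widest range of the 7 genes. Replicate 3 was its lowest in the both-drug, prexasertib and DMSO groups.

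**Figure D2:**
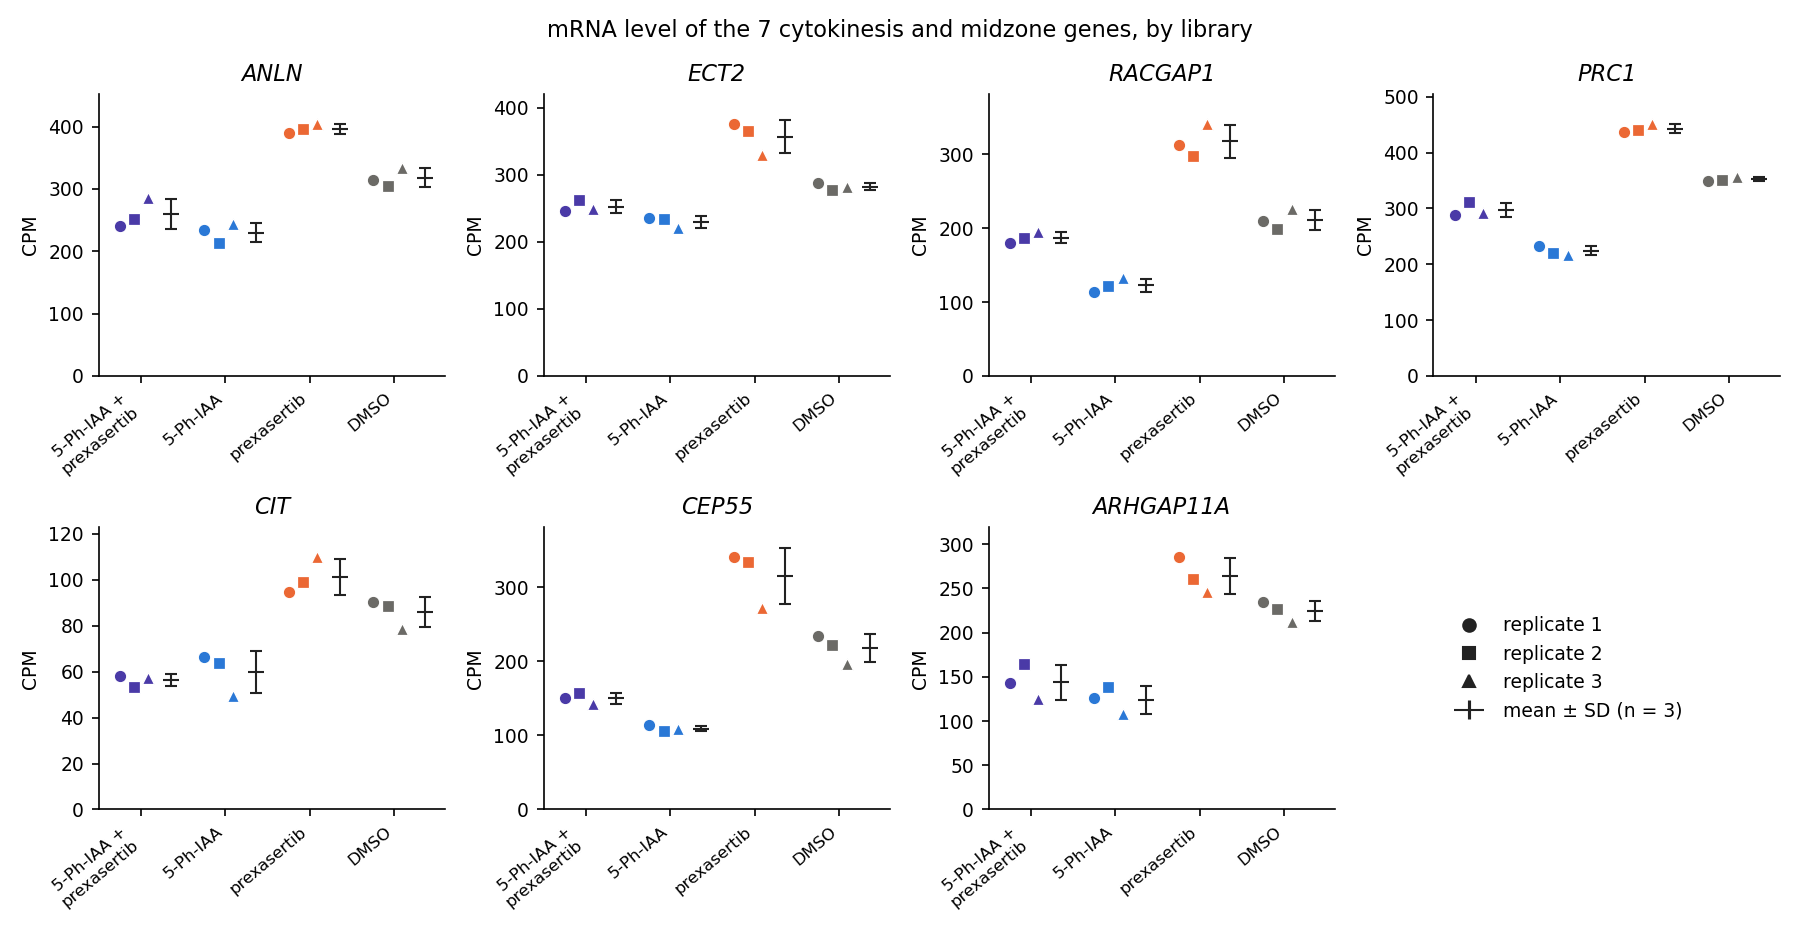
CPM of the 7 genes in each library (points, shaped by replicate number) with the mean ± SD of 3 libraries, for both drugs, 5-Ph-IAA, prexasertib and DMSO. Prexasertib libraries are highest and the libraries given 5-Ph-IAA lowest in every panel; CIT is the panel where the both-drug mean, 56.3 CPM, is not above the 5-Ph-IAA mean, 59.8 CPM.

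The order of the group means was prexasertib, DMSO, both drugs and 5-Ph-IAA, from high to low, in 6 of the 7 genes, and CIT had its last 2 groups exchanged. Prexasertib and DMSO were not called different by the edgeR quasi-likelihood test for CIT and ARHGAP11A. Both drugs and DMSO were not called different for ECT2 and RACGAP1. Both drugs and 5-Ph-IAA were not called different for ANLN, ECT2, CIT and ARHGAP11A. These neighbours are taken up below, since a fit that pairs the replicate numbers called some of them. All adjusted p-values below come from the edgeR quasi-likelihood test with Benjamini-Hochberg adjustment over 14658 genes, 0.05 was the threshold for a call, and errors of log2 fold changes are SE.

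The first question was how these genes differed between 5-Ph-IAA and DMSO, without prexasertib. With 5-Ph-IAA all 7 fell, to between 0.502 and 0.813 of the DMSO level, and 12.2% of all genes tested were called lower in the same comparison. CEP55, the abscission adaptor, fell most: it averaged 109 ± 3.93 CPM with 5-Ph-IAA and 218 ± 19.0 CPM with DMSO (SD, n = 3 each), a log2 change of -0.996 ± 0.092 (adjusted p = 8.87e-06). ARHGAP11A changed by -0.85 ± 0.11 (adjusted p = 0.000132) and RACGAP1 by -0.79 ± 0.078 (adjusted p = 1.65e-05). PRC1 changed by -0.65 ± 0.060 (adjusted p = 8.47e-06), CIT by -0.52 ± 0.11 (adjusted p = 0.00367) and ANLN by -0.47 ± 0.077 (adjusted p = 0.000829). ECT2, the RhoA activator, had the smallest change: it averaged 229.5 ± 8.35 CPM with 5-Ph-IAA and 282 ± 4.69 CPM with DMSO, a log2 change of -0.30 ± 0.066 (adjusted p = 0.00597). In all 7 genes every 5-Ph-IAA library lay below every DMSO library, which held for 18.9% of all genes. The median log2 change was -0.65 over the 7 genes and 0.01 over all genes tested. With library size scaling ECT2 changed by -0.14 and lost its call (adjusted p = 0.166), and the other 6 kept theirs.

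The same drug was then compared in cells given prexasertib. With both drugs all 7 genes were lower than with prexasertib, at between 0.475 and 0.707 of its level, against 10.4% of all genes called lower. CEP55 averaged 150.2 ± 7.27 CPM with both drugs and 316 ± 37.6 CPM with prexasertib (SD, n = 3 each), a log2 change of -1.07 ± 0.092 (adjusted p = 5.96e-06). ARHGAP11A changed by -0.88 ± 0.11, CIT by -0.84 ± 0.11 and RACGAP1 by -0.76 ± 0.078. ANLN changed by -0.61 ± 0.077, PRC1 by -0.58 ± 0.060 and ECT2 by -0.50 ± 0.066, the smallest again, and the largest adjusted p of the 7 was 0.000205. No gene had overlapping groups, against 17.6% of all genes with every both-drug library below every prexasertib library. All 7 calls held with library size scaling, without the libraries numbered 3, and on leaving out any single library.

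Prexasertib alone moved most of the genes the other way. Against DMSO, 5 of the 7 rose, by 1.25-fold to 1.501-fold, where 2.36% of all genes were called higher. RACGAP1 rose most: it averaged 317 ± 22.1 CPM with prexasertib and 211 ± 13.2 CPM with DMSO (SD, n = 3 each), a log2 change of 0.59 ± 0.078 (adjusted p = 0.000824). CEP55 rose by 0.54 ± 0.091 (adjusted p = 0.00426), ECT2 by 0.34 ± 0.066 (adjusted p = 0.0104), PRC1 by 0.33 ± 0.060 (adjusted p = 0.00639) and ANLN by 0.32 ± 0.077 (adjusted p = 0.0310). CIT and ARHGAP11A had values of 0.24 ± 0.11 (adjusted p = 0.262) and 0.23 ± 0.11 (adjusted p = 0.278) and were not called. Even so, in all 7 genes every prexasertib library lay above every DMSO library, as in 9.78% of all genes. With the replicate numbers as a block all 7 were called higher, CIT at an adjusted p of 0.0398 and ARHGAP11A at 0.00241, where 8.37% of all genes were. The call of ANLN was lost without any 1 of 6 libraries (adjusted p up to 0.116). Without prexasertib replicate 1 or 2, ECT2 also lost its call (adjusted p up to 0.0575), which left 3 of the 7. Without the libraries numbered 3, 6 of 7 were called, where CIT had 0.12 (adjusted p = 0.336) and 7.2% of all genes were called higher.

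In cells given 5-Ph-IAA, prexasertib raised 3 of the 7 genes, against 1.17% of all genes called higher with both drugs than with 5-Ph-IAA. RACGAP1 again rose most: it averaged 187 ± 7.73 CPM with both drugs and 122 ± 9.11 CPM with 5-Ph-IAA (SD, n = 3 each), a log2 change of 0.61 ± 0.078 (adjusted p = 0.000715). CEP55 rose by 0.46 ± 0.092 (adjusted p = 0.0163) and PRC1 by 0.41 ± 0.060 (adjusted p = 0.00222). ARHGAP11A had a value of 0.21 ± 0.11 (adjusted p = 0.437), ANLN 0.18 ± 0.077 (adjusted p = 0.321) and ECT2 0.14 ± 0.066 (adjusted p = 0.391). CIT had -0.09 ± 0.11 (adjusted p = 0.796), with differences of -0.19 and -0.25 between the libraries numbered 1 and 2 and 0.22 between those numbered 3. Of the 4 genes not called, ECT2 alone had groups that did not overlap, as 8.87% of all genes did in that direction. With the replicate block 5 of 7 were called higher, ANLN (adjusted p = 0.0157) and ARHGAP11A (adjusted p = 0.0116) among them, where 7.8% of all genes were. CEP55 lost its call without replicate 1 or 2 of either group (adjusted p up to 0.0876). Without the libraries numbered 3, RACGAP1, CEP55 and PRC1 were called higher and CIT was called lower, at -0.24 (adjusted p = 0.0343), where 6.18% of all genes were called higher and 7.68% lower.

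**Figure D3:**
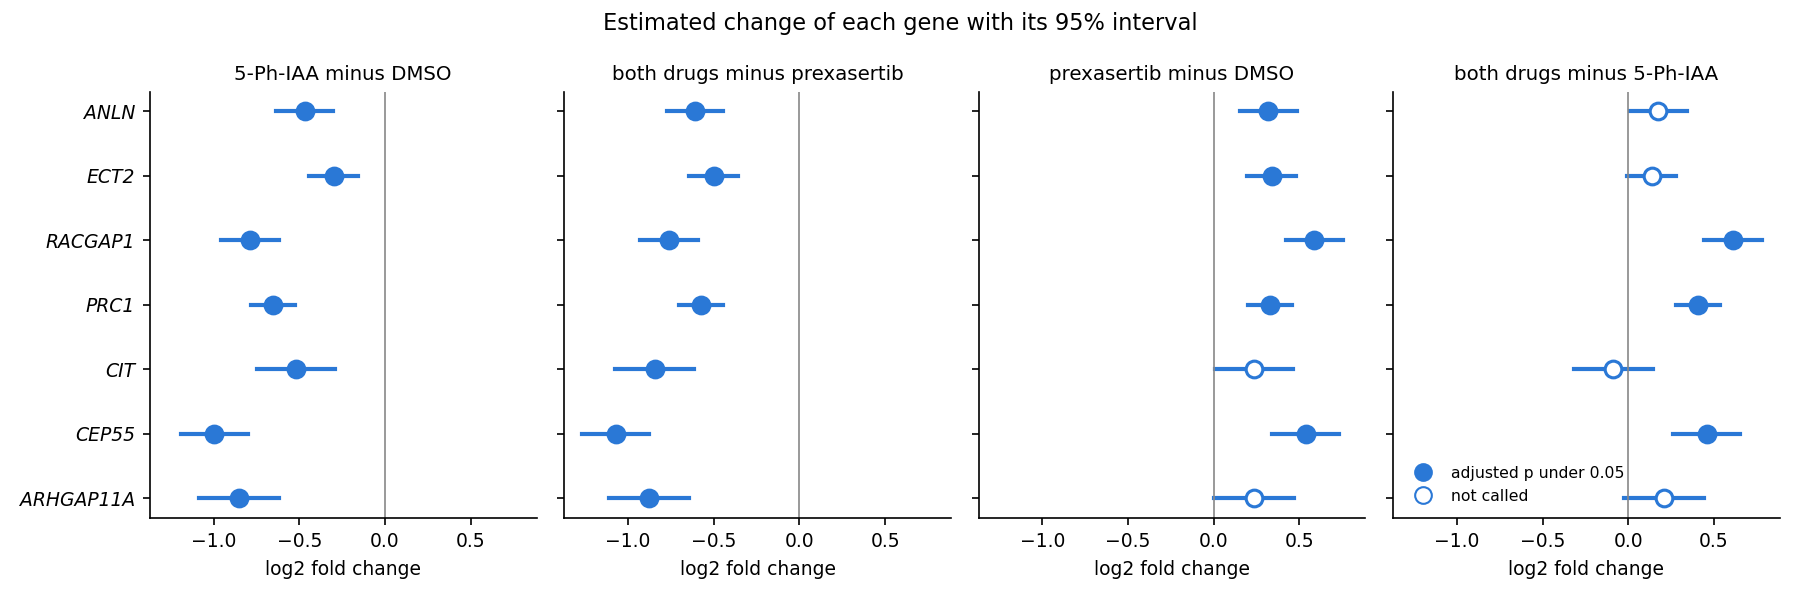
Log2 fold change (points) with its 95% interval (bars) for each of the 7 genes: 5-Ph-IAA minus DMSO, both drugs minus prexasertib, prexasertib minus DMSO, and both drugs minus 5-Ph-IAA. Filled points were called; all 7 are filled and below 0 in both comparisons that test 5-Ph-IAA, 5 are filled for prexasertib minus DMSO and 3 for both drugs minus 5-Ph-IAA.

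The last comparison set both drugs against no drug. With both drugs 5 of 7 were lower than with DMSO, against 14.2% of all genes. ARHGAP11A changed by -0.64 ± 0.11 (adjusted p = 0.000853), CIT by -0.61 ± 0.11 (adjusted p = 0.00111) and CEP55 by -0.54 ± 0.091 (adjusted p = 0.000861). ANLN changed by -0.29 ± 0.077 (adjusted p = 0.0131) and PRC1 by -0.25 ± 0.060 (adjusted p = 0.00850). RACGAP1 had -0.17 ± 0.078 (adjusted p = 0.118), with a 95% interval from -0.34 to -0.01, and ECT2 had -0.16 ± 0.066 (adjusted p = 0.0893), with an interval from -0.30 to -0.02. All both-drug libraries lay below all DMSO libraries in each of the 7 genes, as in 20.8% of all genes. With the replicate block all 7 were called lower, ECT2 at an adjusted p of 0.00858 and RACGAP1 at 0.00563, where 23.5% of all genes were. Without the libraries numbered 3 all 7 were called lower too, ECT2 at an adjusted p of 0.0334 and RACGAP1 at 0.0382, where 20.1% of all genes were. ANLN lost its call without replicate 1 or 2 of the both-drug group (adjusted p up to 0.0635), and PRC1 with library size scaling (-0.14, adjusted p = 0.0977). The 5 comparisons share groups, so their counts are not independent of each other.

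Whether the effect of 5-Ph-IAA had another size under prexasertib was tested by the interaction of the 2 drugs on the log2 scale. None of the 7 genes passed edgeR's test (adjusted p = 0.9996 for each), 0 had an unadjusted p under 0.05 in that fit, and DESeq2 and limma-voom called 0. Over all genes edgeR called 0%, and 519 of 14658 had an unadjusted p under 0.05. The largest values were those of CIT, -0.32 ± 0.15 with a 95% interval from -0.65 to 0.00, and ECT2, -0.20 ± 0.094 with an interval from -0.40 to 0.00. The interval of RACGAP1 ran from -0.21 to 0.26 and that of PRC1 from -0.10 to 0.26. A value of -0.3 lay outside the intervals of RACGAP1 and PRC1 and inside those of CIT, ECT2, ANLN, CEP55 and ARHGAP11A. With the replicate block 2 of the 7 had an unadjusted p under 0.05, ECT2 (0.00899, adjusted p = 0.248) and CIT (0.0102, adjusted p = 0.258). Without the libraries numbered 3 there were 3, ECT2 with a value of -0.30 (adjusted p = 0.0566), CIT with -0.35 (adjusted p = 0.0929) and ANLN with -0.22 (adjusted p = 0.191). DESeq2 gave ECT2 an unadjusted p of 0.0281 (adjusted p = 0.9996). None of these passed the threshold after adjustment.

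Changes relative to a partner protein's gene were tested within libraries by the ratio of the counts, a measure that needs no scaling between libraries. ECT2 over RACGAP1 was the only pair within the 7 genes, and ANLN and ARHGAP11A were in no pair. ECT2 is recruited by RACGAP1, and its log2 ratio to RACGAP1 was 0.45, 0.49 and 0.35 with both drugs, 1.04, 0.95 and 0.73 with 5-Ph-IAA, 0.26, 0.29 and -0.05 with prexasertib, and 0.45, 0.48 and 0.33 with DMSO. So the transcript of the activator gained on that of its recruiter with 5-Ph-IAA and lost ground with prexasertib, and the both-drug ratios lay within 0.03 of the DMSO ratios. Over both arms of the other drug the ratio changed by 0.37 with 5-Ph-IAA and by -0.36 with prexasertib. Each had an exact two-sided permutation p of 0.005, the smallest the 400 arrangements allow, and an adjusted p of 0.00833 over the 10 ratio tests.

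Within centralspindlin, KIF23 fell further than RACGAP1. KIF23 averaged 124 ± 4.96 CPM with 5-Ph-IAA and 269 ± 13.4 CPM with DMSO (SD, n = 3 each), a log2 change of -1.12 ± 0.075 (adjusted p = 9.49e-07). The ratio of RACGAP1 to KIF23 was higher by 0.23 with 5-Ph-IAA (adjusted exact permutation p = 0.00833), the mean of 0.33 without prexasertib and 0.13 with it. For prexasertib the ratio differed by -0.02 (adjusted exact permutation p = 0.675). That last value averages arms of opposite sign, -0.12 with 5-Ph-IAA and 0.07 without it, where all 3 prexasertib ratios lay above all 3 DMSO ratios. KIF4A, the kinesin that PRC1 brings to the midzone, also fell further than its partner: the ratio of PRC1 to KIF4A was higher by 0.24 with 5-Ph-IAA (adjusted exact permutation p = 0.00833) and differed by -0.02 with prexasertib (adjusted exact permutation p = 0.689). KIF4A shares near-identical sequence with its copy KIF4B, so the split of reads between them is uncertain.

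At the midbody the ratio of CEP55 to PDCD6IP, which encodes its ESCRT partner ALIX, followed CEP55. PDCD6IP averaged 191 ± 3.52 CPM with both drugs, 211 ± 7.31 with 5-Ph-IAA, 206 ± 19.5 with prexasertib and 212 ± 4.50 with DMSO (SD, n = 3 each), and it was called in no comparison. The ratio changed by -0.97 with 5-Ph-IAA and by 0.59 with prexasertib (adjusted exact permutation p = 0.00833 for each). The ratio of CIT to KIF14, the kinesin that citron kinase binds, differed by -0.06 with 5-Ph-IAA (adjusted exact permutation p = 0.785; -0.16 with prexasertib and 0.04 without it) and fell by 0.54 with prexasertib (adjusted exact permutation p = 0.0286). That last call rests on few libraries, since it was lost without any 1 of 4 of them (DMSO replicate 3, prexasertib replicate 1 or 2, or 5-Ph-IAA replicate 1), with changes of -0.47 to -0.50. KIF14 itself was low in the libraries numbered 3, at 96.6, 66.7, 137 and 93.4 CPM with both drugs, 5-Ph-IAA, prexasertib and DMSO, and the part of that in the ratio was not tested.

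**Figure D4:**
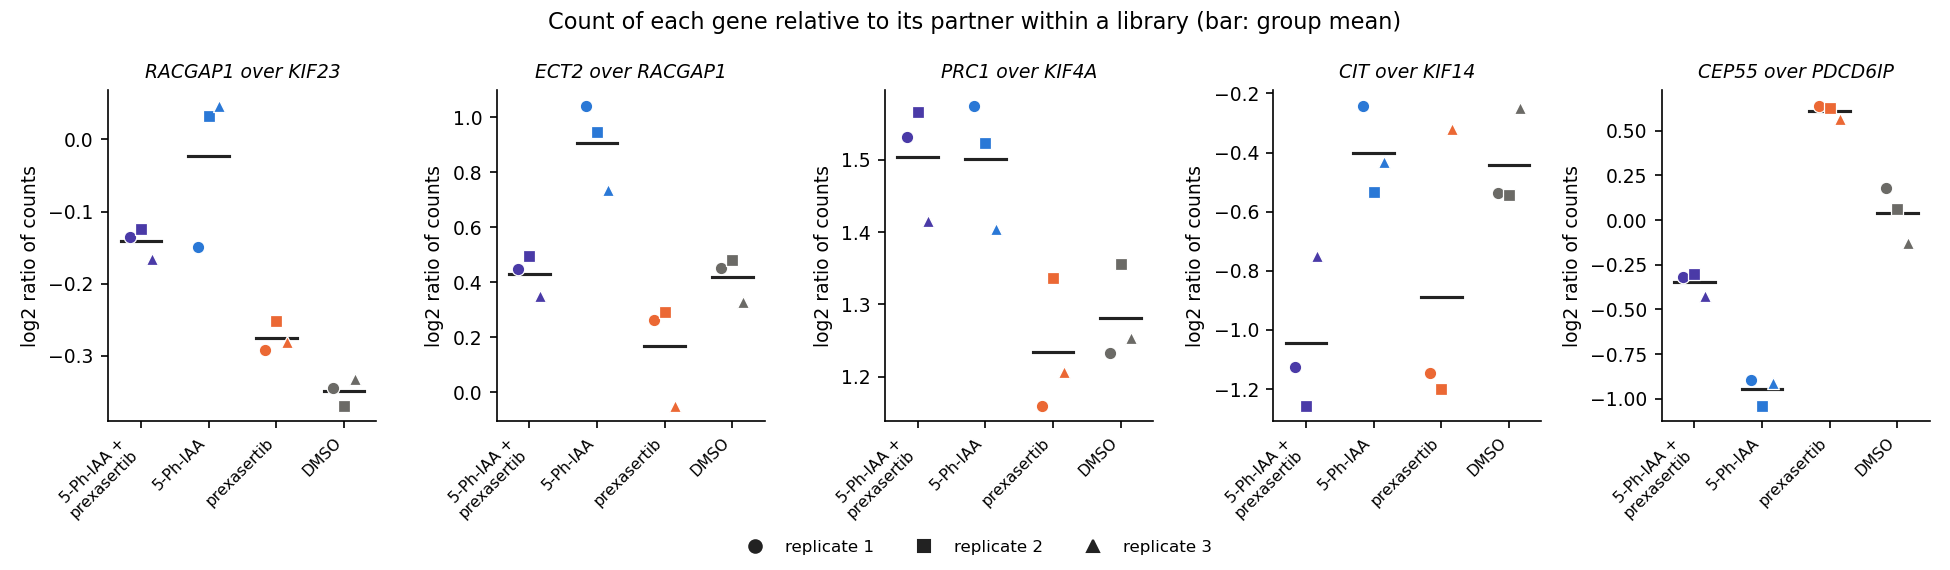
Log2 ratio of the count of each gene to that of its partner in every library (points, shaped by replicate number), with group means (bars), for both drugs, 5-Ph-IAA, prexasertib and DMSO. The ECT2 over RACGAP1 ratio is highest with 5-Ph-IAA and lowest with prexasertib, and CEP55 over PDCD6IP shows the reverse order; the vertical scales differ.

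The rest of the division machinery was described by 4 lists of genes, also chosen with earlier results of these data known. Of 15 genes of the midzone and the chromosomal passenger complex, 9 fell with 5-Ph-IAA and 0 rose, where 12.2% of all genes were called lower and 9.65% higher, and the median log2 change was -0.78. KIF20A, the kinesin that carries the passenger complex to the midzone, changed by -1.68 ± 0.060 (adjusted p = 3.73e-09). KIF20A averaged 67.0 ± 1.89 CPM with 5-Ph-IAA and 215 ± 5.23 CPM with DMSO (SD, n = 3 each). AURKB, the kinase of the passenger complex, changed by -1.45 ± 0.12 (adjusted p = 5.07e-06), a larger fall than that of any of the 7 genes. With both drugs against prexasertib 12 of the 15 fell, where 10.4% of all genes were called lower. Prexasertib raised 6 of 15 against DMSO and lowered 0, where 2.36% of all genes were called higher and 2.37% lower, KIF20A by 1.17 (adjusted p = 2.92e-07), and 5 of 15 rose with both drugs against 5-Ph-IAA, where 1.17% of all genes did. With the replicate block those last counts were 11 and 10 of 15, where 8.37% and 7.8% of all genes were called higher. AURKB had 0.32 ± 0.12 with prexasertib against DMSO (adjusted p = 0.170) and was not called.

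The next list held RhoA, its effectors and the actomyosin of the ring. Of 27 genes tested of 28 listed, 5 fell and 1 rose with 5-Ph-IAA, with a median of -0.16, where 12.2% of all genes were called lower and 9.65% higher. The block counted 15 lower and 3 higher, where 23.6% of all genes were lower and 19% higher. RHOA averaged 459.9 ± 55.9 CPM with 5-Ph-IAA and 482 ± 44.0 CPM with DMSO (SD, n = 3 each), a log2 change of -0.07 with a 95% interval from -0.28 to 0.14. DIAPH3, a formin that nucleates ring actin, had -0.24 with 5-Ph-IAA against DMSO (adjusted p = 0.135) and changed by -0.65 with both drugs against prexasertib (adjusted p = 0.00114). ROCK2, a RhoA effector kinase, was the single call for prexasertib against DMSO and fell by 0.43 (adjusted p = 0.0427), where 2.37% of all genes were called lower. That call was lost on leaving out any 1 of 9 of the 12 libraries (adjusted p up to 0.165) and with limma-voom, which called 0 in the list. For the same comparison the block counted 6 higher and 5 lower, where 8.37% of all genes were higher and 9.77% lower. Of 12 genes tested in the septin list, 3 fell and 0 rose with 5-Ph-IAA, where 12.2% of all genes were called lower. The list also held CDC42EP1, CDC42EP2 and CDC42EP3, which are not septins and were not called in this comparison. SEPTIN9 fell by 0.28 (adjusted p = 0.0129) and SEPTIN7 by 0.30 (adjusted p = 0.0382). The call of SEPTIN7 was lost on leaving out any 1 of 7 of the 12 libraries (values from -0.37 to -0.22 over all 12, adjusted p up to 0.154). With library size scaling the RhoA list had 0 lower and 2 higher, and the septin list had 0 called with its median at 0.01. The calls in these lists thus depend on the scaling, which by library size called 6.73% of all genes lower and 20.6% higher.

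The ESCRT and other abscission genes had 2 of 35 lower and 3 higher with 5-Ph-IAA, with a median of 0.03, where 12.2% of all genes were called lower and 9.65% higher. The block counted 4 lower and 10 higher, where 23.6% and 19% of all genes were. CHMP4C, an ESCRT subunit that delays abscission, rose by 0.50 (adjusted p = 0.00234) and IST1, another ESCRT subunit, fell by 0.43 (adjusted p = 0.000328). With library size scaling 1 was lower and 10 higher, where 6.73% of all genes were called lower and 20.6% higher. Prexasertib against DMSO gave 0 calls in this list by edgeR, DESeq2 and limma-voom, with 4 of 35 at an unadjusted p under 0.05. The block called 1 higher and 3 lower, where 8.37% and 9.77% of all genes were. In the septin list, with its CDC42EP genes, prexasertib against DMSO gave 0 calls of 12 by edgeR and limma-voom. DESeq2 called 1 lower, and by edgeR 1 of 12 had an unadjusted p under 0.05. The block called 2 genes of that list lower, where 9.77% of all genes were, and without the libraries numbered 3, 1 was higher and 1 lower, where 7.2% and 7.01% of all genes were.

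**Figure D5:**
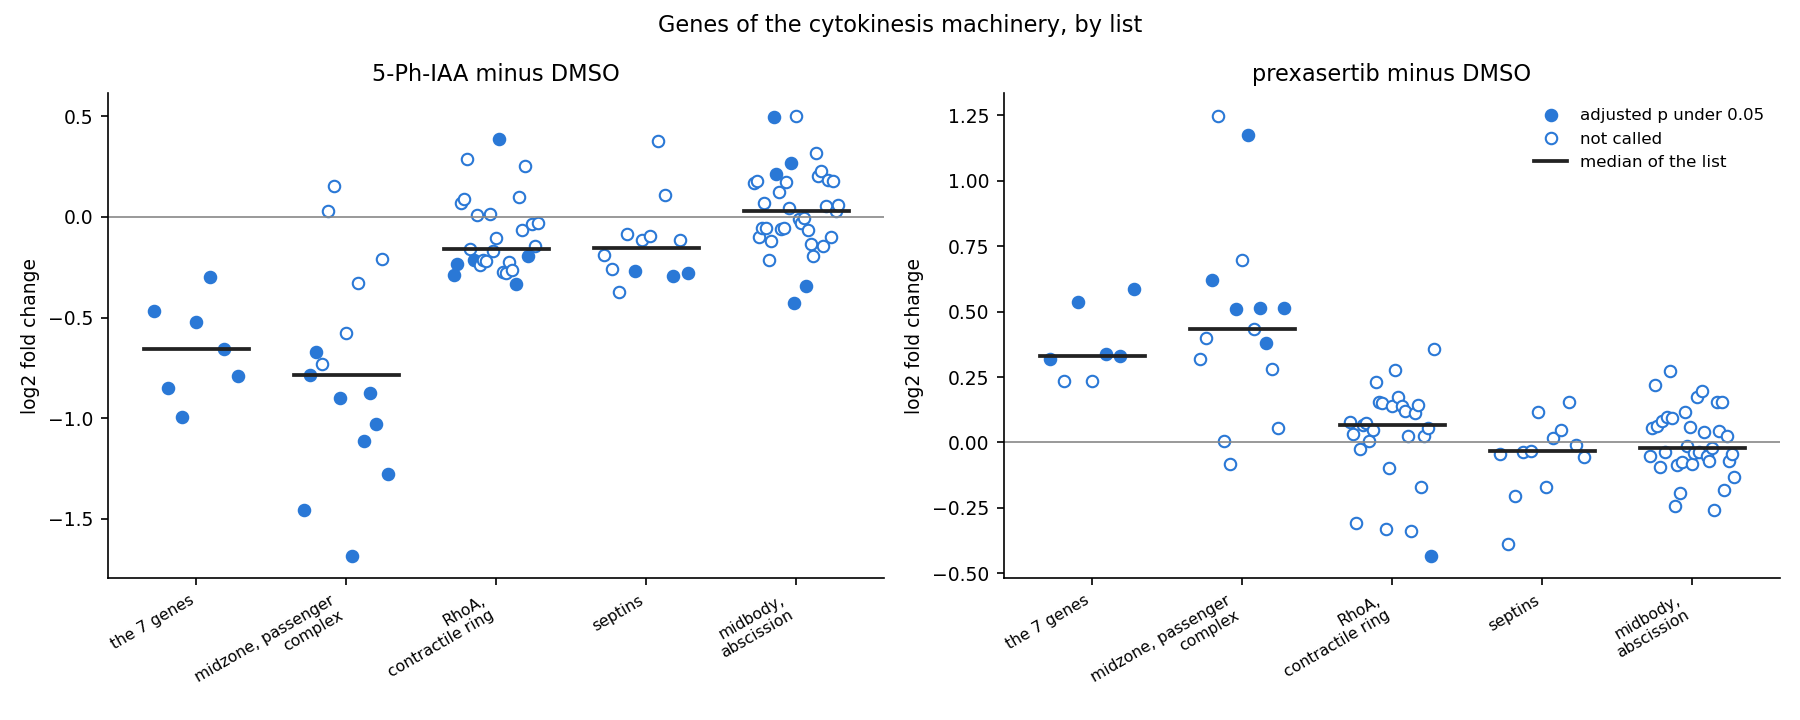
Log2 fold change of every tested gene of each list (points, filled where called) with the list's median (bar), for 5-Ph-IAA minus DMSO and prexasertib minus DMSO. The 7 genes and the midzone list lie low in the first panel and high in the second, with medians of -0.65 and -0.78 and of 0.33 and 0.43, and the abscission list lies around 0 in both; the vertical scales differ.

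Likeness of pattern was measured as the root mean square difference between group mean log2 CPM values, each centred over the 4 groups. The centred mean of the 7 genes was -0.21 with both drugs, -0.49 with 5-Ph-IAA, 0.53 with prexasertib and 0.17 with DMSO. The 5 other genes nearest to it were BUB1 (0.017), UBE2T (0.035), IER2 (0.038), RGS3 (0.039) and HSPA1B (0.042). Among the 7, ANLN and ECT2 were most alike (0.072), and ECT2 and CEP55 were least alike (0.34). The nearest gene to each was ANG for ANLN, SCLT1 for ECT2, CDKN3 for RACGAP1, ATF4 for PRC1, HCFC1 for CIT, NUSAP1 for CEP55 and MAT2A for ARHGAP11A. With 4 group means of 12 libraries, likeness describes these samples and carries no test.

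The genes lie on chromosomes 7 (ANLN), 3 (ECT2), 12 (RACGAP1 and CIT), 15 (PRC1 and ARHGAP11A) and 10 (CEP55), by RefSeq on GRCh38.p14. ANLN overlaps the first bases of MATCAP2 on the opposite strand, which had 136 to 449 counts per library. PRC1 overlaps PRC1-AS1, which had 0 to 8 counts. The strand setting of the counting is not given in the sources used here, so reads of ANLN and PRC1 that lie in these overlaps are uncertain.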

How the data were processed

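The authors deposited whole-number read counts for each gene without normalization, made from poly(A)-selected, directional libraries per the labels' protocols. The submitters' processing notes list hg38 as the build, and featureCounts 2.0.8 and limma 3.58.1 as tools, without their roles. Which aligner, annotation and strand setting were used is not given in the sources used here. Groups follow the sample titles; the genotype label says WT although the growth protocol speaks of mAID TRRAP cells. The 13 chromatin samples of the series were not analysed here.

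The filterByExpr rule (at least 10 counts, and 15 in total) kept 14658 genes, which held 99.92% of all counts. Of 28395 gene numbers, 27745 matched RefSeq's gene table. Libraries were scaled by TMM, and edgeR 4.0.16 in R 4.3.3 fitted 1 term per group to all 12 libraries with its robust quasi-likelihood method. The biological coefficient of variation was 12.8%. The procedure was tested on simulated data, where part of the genes changed by a known fold were not called, so a gene not called may still have changed. Counting intervals would cover counting error only, since reads carried no molecular identifiers.

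Ratios of counts (pseudocount 0.5) were compared by exact permutation of the labels of one drug within the arms of the other, over 400 arrangements. Promoter sequences are RefSeq's. Alternatives were library size scaling, DESeq2 1.42.0, limma-voom 3.58.1, no filter, at least 1 CPM in every library, the replicate number as a block, leaving out the libraries numbered 3 or any single library, and fitting only the groups compared.

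Replicate numbers come from the sample titles. Deviations from group means correlated at 0.22 to 0.633 in all 18 pairs of libraries with the same number. In the 36 pairs with different numbers they correlated at -0.503 to 0.366, and every negative value involved a library numbered 3. Libraries numbered 1 correlated with those numbered 2 at 0.196 to 0.366. Pairs sharing the number 1 or 2 had 0.22 to 0.402. The correlations thus set the libraries numbered 3 apart but do not show that numbers 1 and 2 pair the libraries. For the block, pairing by number was assumed.

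The 7 genes and all lists were chosen with earlier results of these data known. Named were the 7 genes, KIF23, KIF20A, KIF4A, KIF14, AURKB, RHOA and DIAPH3, the partner PDCD6IP, overlapping genes and paralogs, and the genes nearest in pattern. From each list, the 2 called genes with the smallest adjusted p in a direction could be named. Some results are not reported here.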

Additional observations from a re-analysis of the deposited data

How the results depend on the processing

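The 7 falls with both drugs against prexasertib held in every alternative, and those with 5-Ph-IAA against DMSO in every one but library size scaling for ECT2. No called value of the 7 genes reversed. The interaction values of RACGAP1 and ARHGAP11A, 0.03 and -0.02 and not called, ran from -0.02 to 0.08 and from -0.13 to 0.06 on leaving out 1 library. Of the 7 genes, the number called for prexasertib against DMSO ranged from 3 to 5 on leaving out 1 library, for both drugs against 5-Ph-IAA from 2 to 3, and for both drugs against DMSO from 4 to 5. The replicate block gave 5 calls for both drugs against 5-Ph-IAA and changed no call of the 7 genes other than those given with the results. Fitting only the groups compared, the filters, DESeq2 and limma-voom moved no count of the 7 genes by over 1.5 times.

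Without the libraries numbered 3 the ratio tests could not reach an adjusted p under 0.0794, which says nothing about stability. The values were then 0.22 (RACGAP1 over KIF23, 5-Ph-IAA), 0.36 and -0.36 (ECT2 over RACGAP1, 5-Ph-IAA and prexasertib), 0.28 (PRC1 over KIF4A, 5-Ph-IAA), -0.72 (CIT over KIF14, prexasertib), and -1.02 and 0.58 (CEP55 over PDCD6IP, 5-Ph-IAA and prexasertib). CIT over KIF14 with prexasertib ranged from -0.69 to -0.47 on leaving out 1 library (adjusted exact permutation p up to 0.0643).

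Over all genes, calls for 5-Ph-IAA against DMSO were 3201, against 6245 with the block and 5296 without the libraries numbered 3. For prexasertib against DMSO they were 693, against 2659 and 2094, and 357 with only the groups compared. For both drugs against prexasertib they were 2674, against 5441 and 4498. For both drugs against 5-Ph-IAA they were 355, against 2272 and 2042, 657 with DESeq2 and 184 with only the groups compared. For both drugs against DMSO they were 3802, against 6552 with the block. The interaction had 0, against 96 and 187, and 5 with DESeq2. Leaving out 1 library gave 2092 to 3415, 306 to 786, 1804 to 2834, 156 to 447 and 2735 to 4051 calls in the same order. The share of calls that were higher moved with library size scaling to 75.4% from 44.2% for 5-Ph-IAA against DMSO, to 37.3% from 49.9% for prexasertib against DMSO, to 74.3% from 43.0% for both drugs against prexasertib, to 31.6% from 48.2% for both against 5-Ph-IAA, and to 65.2% from 45.4% for both against DMSO. The causes of these changes were not tested.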
